A study of Oryza sativa with 6 samples.

Results

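Late embryogenesis abundant proteins are small, hydrophilic proteins that accumulate when seeds dry out and, in leaves, under water deficit or abscisic acid. They are known to protect proteins and membranes during dehydration. DREB1 proteins, also called CBF, are AP2/ERF transcription factors best known for turning on cold and dehydration genes through the DRE/CRT promoter element, while many late embryogenesis genes are driven by abscisic acid through bZIP factors. The genes described are EM (LOC4338499), PM1 (LOC4338635), LEA19 and DREB1G (LOC4330306), which gave 5 of the 57194 non-control probe sets on the array. They comprise every probe set that the platform annotation gives to 1 of these 4 genes alone. The genes were chosen by the size of the OX minus WT difference in these same signals, so the differences between genotypes given for them are descriptions without a test.

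The study profiled leaf RNA from 4-week-old rice (Oryza sativa) on 1-colour Affymetrix Rice Genome Arrays. It compared 3 wild type plants (WT) with 3 transgenic plants overexpressing OsCGA1 (OX), a GATA-type transcription factor, as biological replicates. Both genotypes were kept at 28 °C during a 16 h day and at 23 °C during an 8 h night, and the labels name no stress or hormone treatment. The cultivar, the promoter of the transgene and the number of independent lines are not given in the sources used here.

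Median signals per array were 14.7 to 18.7 units, and the number of arrays limits the precision. No value for OsCGA1 was used here, which leaves the OX label unchecked. All 9 measured genes of the leaf mesophyll list were at or above the signal filter. So were 6 of 7 root and 3 of 8 seed and embryo markers, so reaching it does not check the leaf label. The summed signal of the 9 leaf genes was 56814 to 65180 in WT and 42851 to 50357 in OX (exact permutation p = 0.1, two-sided, the smallest that 3 against 3 arrays allow). Of 28456 probe sets tested with limma, 16.1% passed an adjusted p under 0.05. The corresponding share was 19.1% with 1 probe set per gene (14616 genes), 11.1% higher and 8.00% lower in OX. Of these 9 leaf genes 3 fell, namely GLK1 (-0.63 ± 0.13), GLK2 (-0.50 ± 0.10) and LFNR1 (-0.68 ± 0.12), with an adjusted p of 0.0166, 0.0176 and 0.00903 from limma. All 9 had negative log2 differences (-0.68 to -0.29) and an unadjusted p under 0.05. The part of this shift in the results on the 4 genes was not tested. The array also carries actin and GAPDH control probe sets for the 3' and the 5' end of the transcript, whose signal ratio reflects RNA quality. In 2 of 4 measured control pairs every OX array had a higher ratio than any WT array. Ratios in 1 of these, an actin pair, were 2.38, 3.11 and 3.02 on the WT arrays and 7.29, 3.75 and 3.25 on OX 1, OX 2 and OX 3, so OX 1 stood highest. In the GAPDH pair the ratios were 4.78, 5.18 and 4.25 on the WT arrays and 4.65, 4.04 and 3.36 on the OX arrays. The genotypes overlapped in that pair, and WT 2 stood highest.

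EM and PM1 had high signals in WT leaves and much lower ones in OX leaves. EM encodes a small hydrophilic protein first known from cereal embryos, whose rice gene is a classic abscisic acid target. The EM signal was 1754.4, 1473.3 and 596.1 on WT 1, WT 2 and WT 3, and 251.0, 50.9 and 188.8 on OX 1, OX 2 and OX 3. WT 3 was the low WT array and OX 2 the low OX array, and the genotypes did not overlap: the lowest WT signal was 2.38 times the highest OX signal. Group means were 1275 ± 604 in WT and 164 ± 102 in OX (SD, n = 3 each). On the log2(signal + 3) scale the difference, OX minus WT, was -3.07 ± 0.84 (SE from the group SDs, n = 3 per genotype). Over all 9 pairings of an OX with a WT array it ran from -5.03 to -1.24.

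PM1 is listed under the synonyms PM19L and OsPM19L1. Its protein family sits in the plasma membrane, so it is grouped with late embryogenesis genes by its occurrence in seeds and not as a classical hydrophilic member. The PM1 signal was 1462.0, 1077.4 and 824.3 on the WT arrays and 352.4, 44.0 and 251.4 on the OX arrays, in the order of replicates 1 to 3. As for EM, the OX 2 array was far below the other OX arrays, and no OX array reached the lowest WT array. The means were 1121 ± 321 and 216 ± 157 (SD, n = 3 each), and the log2 difference was -2.76 ± 0.93 (SE). Leaving out OX 2 changed it to -1.86, while leaving out OX 1 gave -3.32. A second probe set of PM1 read 0.5 to 2.6 on the 6 arrays, below the pseudocount of 3 on each of them and below the filter, and it was not tested. The statements on PM1 therefore rest on 1 probe set.

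LEA19, listed also as LEA3 and OsLEA19, encodes a late embryogenesis protein of the kind that forms helices on drying, and its signal lay on the other side. It was 21.3, 26.1 and 1.3 on WT 1 to WT 3 and 365.0, 46.1 and 114.4 on OX 1 to OX 3. The genotypes did not overlap, with OX 2 at 1.77 times the highest WT array. The OX arrays themselves covered a 7.92-fold range, and WT 3 lay below the pseudocount. The log2 difference was 3.15 ± 1.22 (SE, n = 3 per genotype). Without WT 3 it was 2.27, without OX 1 it was 2.39, and without OX 2 it was 3.84. With a pseudocount of 12 it was 2.45, and 3.79 with none. The probe set carries the suffix that Affymetrix gives to probes shared by several transcripts, so related transcripts may add to its signal.

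DREB1G, a DREB1 family factor, was barely above the pseudocount in WT and spread widely in OX. Its signal was 4.0, 8.8 and 12.1 on WT 1 to WT 3 and 16.9, 308.3 and 140.9 on OX 1 to OX 3. OX 1 was just 1.40 times the highest WT array, whereas OX 2 and OX 3 stood well clear of it. The log2 difference was 3.16 ± 1.23 (SE, n = 3 per genotype), from 0.40 to 5.47 over the 9 pairings of arrays. It was 4.30 without OX 1 and 2.31 without OX 2. With a pseudocount of 12 the difference was 2.49, against 3.58 with none, so its size depends on that choice.

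**Figure D1:**
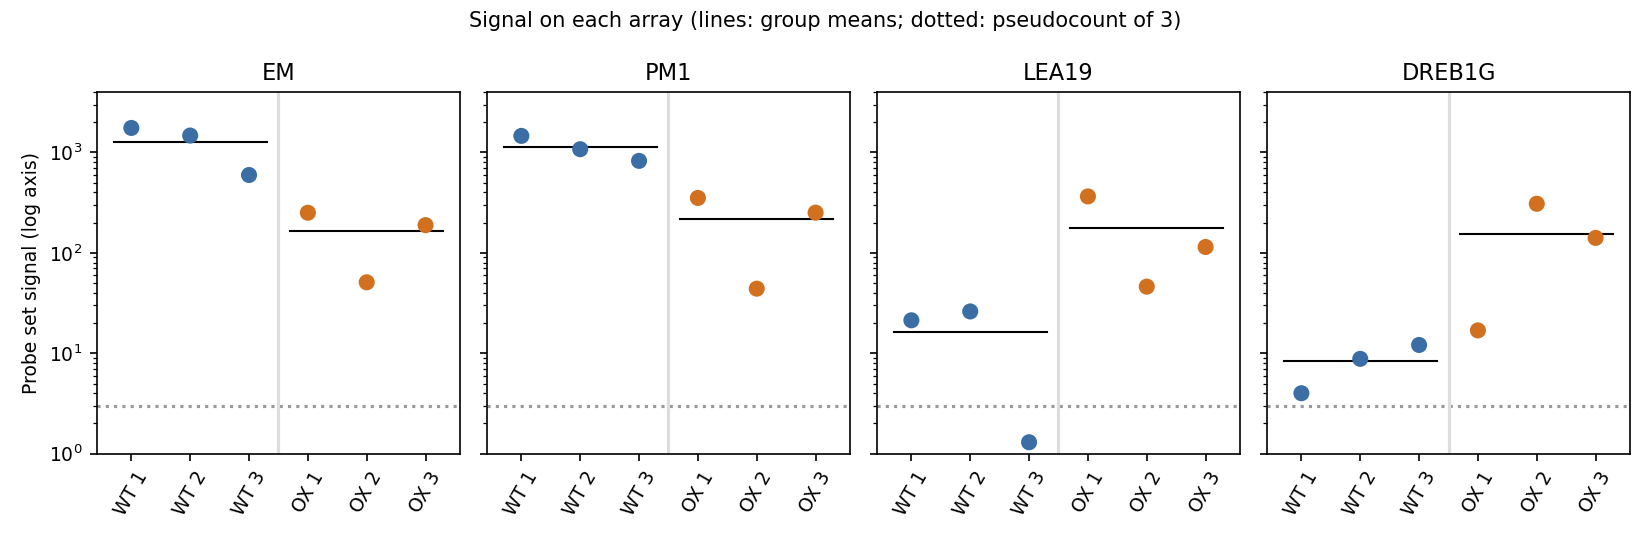
Signals of EM, PM1, LEA19 and DREB1G (tested probe set of each) on the 6 arrays, on a log axis, with group means as lines and the pseudocount of 3 dotted. EM and PM1 lie lower and LEA19 and DREB1G higher on every OX array than on any WT array, and OX 1 of DREB1G (16.9) lies close to WT 3 (12.1).

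All 4 tested probe sets of these genes thus had groups that did not overlap, EM and PM1 lower and LEA19 and DREB1G higher in OX. Groups also failed to overlap in 22.0% of all tested probe sets with lower and 16.7% with higher signals in OX. Since the genes were picked for this contrast, nothing is read from that count.

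The spread between replicate arrays was wide in all 4 genes. They were chosen for large differences in these same signals, which favours a wide spread, so the values below are a description. The WT means of LEA19 and DREB1G, 16.2 and 8.3, were below the filter of 16.8, so both were tested only through their OX signals. The SD within groups on the log2 scale was 1.03 for EM, against a median of 0.15 among the 500 tested probe sets nearest to it in mean level, of which 99.4% had a smaller SD. PM1 had an SD of 1.14 (99.4% of its 500 neighbours in level were lower) and LEA19 an SD of 1.49 (100% lower). For DREB1G the SD was 1.50, against a median of 0.34 among its neighbours in level, of which 99.2% were lower. By genotype, the SD was 0.83 in WT and 1.19 in OX for EM, 0.41 and 1.56 for PM1, and 0.57 and 2.05 for DREB1G. For LEA19 it was 1.46 in OX, and its SD of 1.52 in WT rests on WT 3, whose signal of 1.3 lies below the pseudocount and cannot be told from background.

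**Figure D2:**
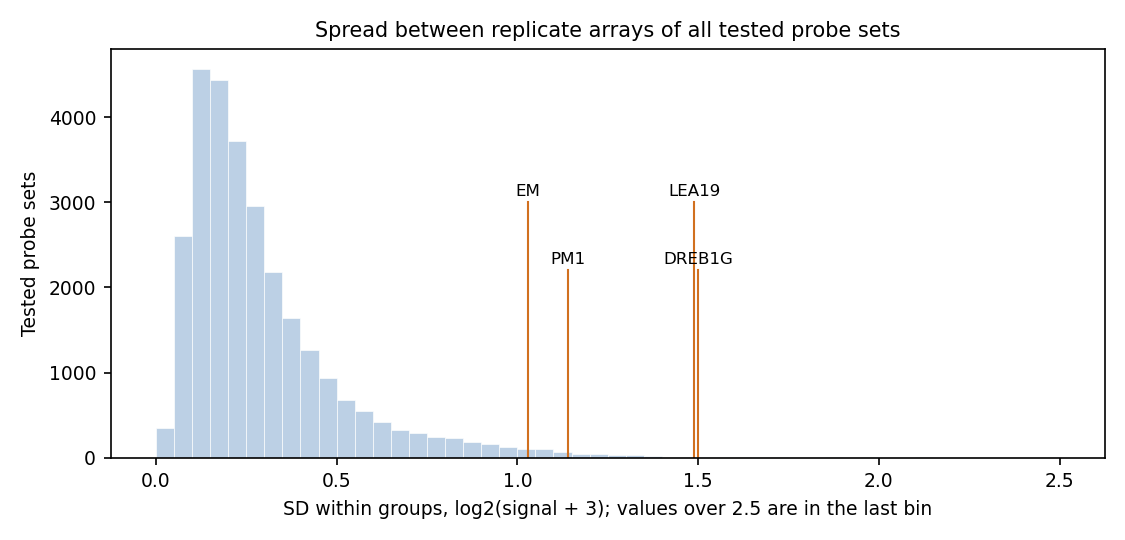
Histogram of the SD within groups on the log2(signal + 3) scale for all 28456 tested probe sets, with the 4 genes as lines. The genes lie between 1.03 and 1.50, in the right tail, while the median of all tested probe sets was 0.23. The genes were chosen for large differences, which favours a wide spread.

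EM, PM1 and LEA19 had the same high and low arrays within OX, although LEA19 differed from EM and PM1 in the direction of its genotype difference. In each of them OX 1 was the highest and OX 2 the lowest OX array, and WT 3 the lowest WT array. After each genotype's mean was removed, EM deviated by 0.88, -1.36 and 0.48 on OX 1, OX 2 and OX 3. PM1 deviated by 1.13, -1.79 and 0.65 and LEA19 by 1.52, -1.39 and -0.13 on the same arrays. DREB1G went the other way, with -2.27, 1.69 and 0.58. The root mean square difference between these deviations over the 6 arrays was 0.35 for EM and PM1, 0.56 for EM and LEA19, 0.81 for PM1 and LEA19, and 1.95 for EM and DREB1G. By this measure PM1 stood at rank 23 and LEA19 at rank 298 of 14615 other genes in likeness to EM, and EM at rank 7 in likeness to LEA19. PM1 and LEA19 were less alike, with LEA19 at rank 1656 for PM1 and PM1 at rank 80 for LEA19. DREB1G stood at rank 14612 for EM, PM1 and LEA19 alike, near the far end. These ranks describe 6 arrays and carry no test, and genes with a wide spread reach the far ranks more readily.

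RAB16B, RAB16C and RAB21 were likewise highest on OX 1 and lowest on OX 2 within OX, but their genotypes overlapped. Beside the 3 genes above, the list held 4 tested genes, all of them dehydrins: LIP9, RAB16B, RAB16C and RAB21. None of the 4 passed with limma (0 also at an unadjusted p under 0.05), against 19.1% of all genes, and their median log2 difference was 0.37, against -0.02 over all genes. RAB21 read 47.7, 66.6 and 31.5 on the WT arrays and 145.7, 29.6 and 55.7 on the OX arrays, so its groups overlapped. RAB16B read 20.5, 38.7 and 18.0 in WT and 83.8, 19.1 and 26.5 in OX, with a log2 difference of 0.49 ± 0.52 (SE from limma, adjusted p 0.547). RAB16C was at -0.37 ± 0.38 (adjusted p 0.534) and LIP9 at 0.34 ± 0.16 (adjusted p 0.189). RAB16B, RAB16C and RAB21 are close relatives that stand side by side in the genome, and shared probes can join their signals. A further 2 genes of the list, RAB16D and RAB25, were below the filter, and RAB16D read 2.0, 3.0 and 12.8 on OX 1 to OX 3.

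With the 4 tested dehydrins included, OX 1 was the highest OX array in 7 of 7 tested late embryogenesis genes, as in 30.1% of all tested probe sets. OX 2 was the lowest in 6 of 7 (34.5% of all tested probe sets), the exception being LIP9 at 234.5, 230.3 and 172.5 on OX 1 to OX 3. WT 3 was the lowest WT array in 6 of 7 (32.3% of all tested probe sets), the exception being RAB16C. The array-wise pattern was noticed in these data and has no test. OX 1 was also the array with the highest actin 3' to 5' ratio, but not the one with the highest GAPDH ratio. The part of RNA quality in the pattern was not tested.

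**Figure D3:**
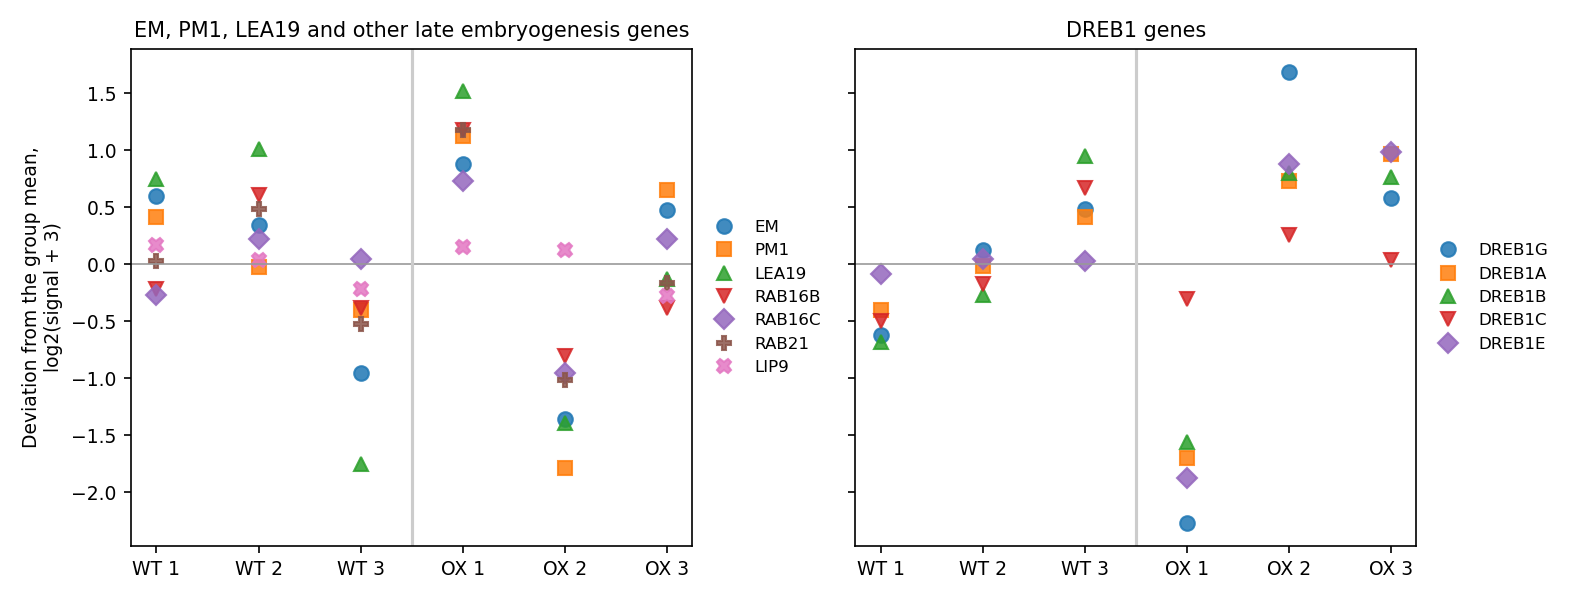
Deviation of each array from its genotype's mean on the log2(signal + 3) scale, for 7 late embryogenesis genes (left) and 5 DREB1 genes (right). On the left OX 1 is the highest OX array in 7 of 7 genes and OX 2 the lowest in 6 of 7, and on the right OX 1 is the lowest OX array in 5 of 5.

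Among the relatives of DREB1G, DREB1B rose in OX, and DREB1A and DREB1E had the same shape on the arrays without passing. Of 6 other tested genes of the DREB and CBF list 1 rose and 0 fell (11.1% and 8.00% over all genes), and the median log2 difference was 0.67. DREB1B read 7.3, 10.7 and 29.0 on the WT arrays and 45.9, 247.7 and 242.6 on the OX arrays. Its genotypes did not overlap, and it changed by 3.13 ± 0.67 (SE from limma, adjusted p 0.0191). It did not pass without WT 1, WT 2 or OX 3. The WT mean of DREB1B, 15.7, was below the filter of 16.8, so it was tested only through its OX signals. DREB1A and DREB1E, singled out after their values were seen, overlapped between genotypes, with OX 1 below the highest WT array. DREB1E read 15.1, 16.8 and 16.5 in WT and 10.4, 86.9 and 93.9 in OX, and DREB1A read 10.6, 14.8 and 21.0 in WT and 8.7, 60.1 and 71.4 in OX. The WT means of DREB1E and DREB1A, 16.1 and 15.5, were below the filter as well, so both were tested only through their OX signals. Their log2 differences were 1.35 ± 0.69 (adjusted p 0.212) and 1.08 ± 0.67 (adjusted p 0.294) over all arrays. Without OX 1 they were 2.29 (adjusted p 0.00221) and 1.93 (adjusted p 0.0121), and 3 genes of the list then passed. OX 1 was the lowest OX array of both genes, so leaving it out could only raise their differences. DREB1E was at 0.91 (adjusted p 0.409) without OX 2 and 0.86 (adjusted p 0.489) without OX 3, and DREB1A at 0.71 (adjusted p 0.52) and 0.60 (adjusted p 0.624). DREB1E passed in 2 of 14 alternatives and DREB1A in 1 of 13. DREB1C was at -0.30 ± 0.38 (adjusted p 0.611), and the DREB2 factors DREB2A and DREB2B were at 0.27 and -0.01, and none of these 3 passed.

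In all 5 tested DREB1 genes OX 1 was the lowest OX array, as in 40.2% of all tested probe sets, and WT 1 the lowest WT array (34.2%). Their signals on WT 1 were 4.0 to 15.1. On OX 1, DREB1A, DREB1C and DREB1E read 8.7, 12.4 and 10.4. All of these lie under the filter of 16.8, and signals this low cannot be told from background. The DREB1 genes are similar in sequence and probes may be shared between them, which could not be checked here.

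Abscisic acid is known to act upstream of EM and the dehydrins, and the tested genes of its list were called in both directions. Of 22 tested genes for synthesis, breakdown and signalling of abscisic acid, 2 rose, 4 fell and 16 did not pass, with 27.3% called against 19.1% of all genes, with a median log2 difference of -0.16. ABA8OX1, a hydroxylase that breaks abscisic acid down, rose by 3.80 ± 0.73 (adjusted p 0.0129 from limma). It read 14.7, 3.8 and 1.7 in WT and 38.6, 284.7 and 125.6 in OX, so that OX 1 was the lowest and OX 2 the highest OX array, as for DREB1G. The WT mean of ABA8OX1, 6.73, was below the filter of 16.8, so it was tested only through its OX signals. The related gene ABA8OX2 changed by -0.96 ± 0.14 (adjusted p 0.00437). OsSAPK5 and OsSAPK3 are kinases of the SnRK2 family that carry stress and abscisic acid signals. OsSAPK5 fell from 557 ± 56.1 to 283 ± 11.4, while OsSAPK3 rose from 238 ± 9.57 to 554 ± 151 (SD, n = 3 each, adjusted p 0.00185 and 0.00767). TRAB1, a bZIP factor known in rice to act on the EM promoter, was named for that role after its values were seen. It was at -0.21 ± 0.12 (adjusted p 0.255), and VP1, its seed partner, was below the filter with means of 4.83 in WT and 8.10 in OX.

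Of 14 cold and drought genes 3 rose and 0 fell (11.1% and 8.00% over all genes). In either direction 21.4% were called, against 19.1% of all genes, and the median was 0.19. The MYB factor gene MYB4 rose by 2.79 ± 0.26 (adjusted p 0.000903). Its signal was 33.9, 25.9 and 57.1 in WT and 320.1, 256.1 and 250.9 in OX, so OX 1 was not low. Its other tested probe set was at 1.53 and did not pass. The lectin gene salT rose by 1.56 ± 0.38 (adjusted p 0.0306) and the small membrane protein gene LTI6B by 0.37 ± 0.09 (adjusted p 0.0251), but salT passed in 5 and LTI6B in 6 of 14 alternative settings. A second probe set of salT also passed (1.57 ± 0.42), whereas that of LTI6B did not (0.42 ± 0.19).

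**Figure D4:**
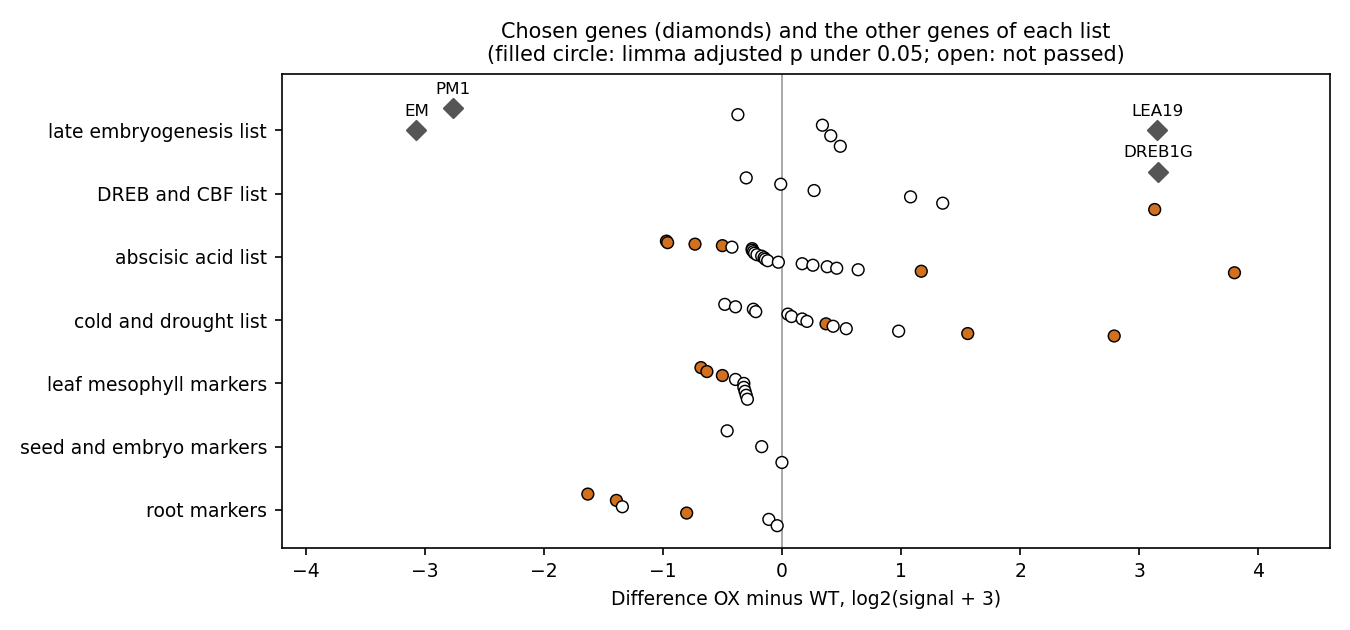
Log2 differences, OX minus WT, of EM, PM1, LEA19 and DREB1G (diamonds, chosen for their difference) and of the other tested genes of each list (circles, filled where the adjusted p from limma was under 0.05). The chosen genes EM, PM1 and LEA19 are at -3.07, -2.76 and 3.15, the 4 other late embryogenesis genes run from -0.37 to 0.49, and DREB1B is at 3.13.

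Markers of other tissues were measured because EM and LEA19 are seed genes. Of 8 measured seed and embryo markers, 5 were below the filter, and none of the 3 tested passed with limma (1, RA14, at an unadjusted p under 0.05). RA14 was at -0.46 ± 0.18 (adjusted p 0.123), with means of 82.1 in WT and 59.6 in OX, and GLUA-2 at -0.17 ± 0.13 (adjusted p 0.382), with means of 223 and 197. The third, GLB, read 264.4 to 354.4 in WT and 278.4 to 365.5 in OX. Their summed signal was 616 to 686 in WT and 560 to 659 in OX (exact permutation p = 0.3, two-sided). Of those below the filter, GLUA-1 read 0.4 to 1.1 and the brighter probe sets of PROLM25 and RA17 1.2 to 9.7 and 1.9 to 8.6 over the 6 arrays. GLUB-4 was brighter, with 6.3, 19.3 and 21.1 on the WT arrays and 5.6, 1.1 and 14.7 on the OX arrays. Its mean was lower in OX, but its genotypes overlapped and it was not tested. VP1 read 1.4 to 9.2 in WT and 2.1 to 13.8 in OX, with the higher mean in OX. Of 6 tested root markers 3 fell, against 8.00% lower over all genes: Lsi1 (-1.39 ± 0.17), YSL15 (-1.63 ± 0.31) and IRT1 (-0.80 ± 0.23), with an adjusted p of 0.00269, 0.0129 and 0.0491 from limma. HKT1;5 was at -0.04, NRAMP5 at -0.11 and IRT2 at -1.34, none of which passed, and Lsi2 was below the filter. The summed signal of the 7 measured root markers was 699 to 733 in WT and 293 to 333 in OX (exact permutation p = 0.1, two-sided), and Lsi1 held most of it, with means of 416 and 159. Their part in the lower EM and PM1 signals was not tested. In bulk leaf RNA, fewer cells that express a gene and less RNA per cell cannot be told apart.

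Genes with profiles most like each of the 4 were looked up among 2062 other named genes by the root mean square difference of log2 profiles centred over the 6 arrays. This measure includes the genotype difference that chose the genes. The nearest gene to EM was PM1, and the nearest to PM1 was EM, at 0.39. OsPP2C12, a type 2C phosphatase gene (0.61), and URH2, a nucleoside hydrolase gene (0.69), followed for EM, and URH2 (0.51) and the zinc transporter family gene OsZIP1 (0.63) for PM1. On OX 2, URH2 read 1.9 and OsZIP1 0.9, both below the pseudocount of 3. Their low value on that array cannot be told from background. LEA19 had no close match: BURP16 and the chitinase gene Cht4 were both at 0.95, and the sugar transporter gene OsSWEET15 was at 1.09. BURP16 read 6.3, 2.5 and 2.6 on the WT arrays, so its WT profile cannot be told from background. Cht4 read 162.6, 122.3 and 47.8 in WT and 546.8, 182.8 and 304.2 in OX, again lowest on WT 3 and OX 2 and highest on OX 1 within its genotype. The nearest gene to DREB1G was DREB1B at 0.54, followed by DTC1 at 0.78 and JAZ13, a jasmonate signalling repressor gene, at 0.90. JAZ13 read 21.7, 22.3 and 22.8 in WT and 30.5, 161.6 and 117.7 in OX, with OX 1 close to WT as for DREB1G.

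The genes next to EM, PM1, LEA19 and DREB1G in the RefSeq gene order did not share their large differences. They were the 3 protein-coding genes on each side, and this set was chosen after the data were seen. The gene before EM, CHLG, which encodes chlorophyll synthase, was at 0.15 ± 0.16 (adjusted p 0.568), and the gene after it, LOC4338500, rose by 0.55 ± 0.10 (adjusted p 0.00922). Before PM1, the calmodulin-like gene CML15 rose by 1.01 ± 0.20 (adjusted p 0.014), against the direction of PM1, and the gene after it, LOC4338636, was at -0.18. The genes directly beside LEA19 were at 0.26 and -0.13 and did not pass, and LOC4339482, the second after it, fell by 0.96 ± 0.14 (adjusted p 0.00427). After DREB1G, LOC4330307 was at -0.40 ± 0.14 (adjusted p 0.0846). The 3 genes before it had no probe set of their own.

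**Figure D5:**
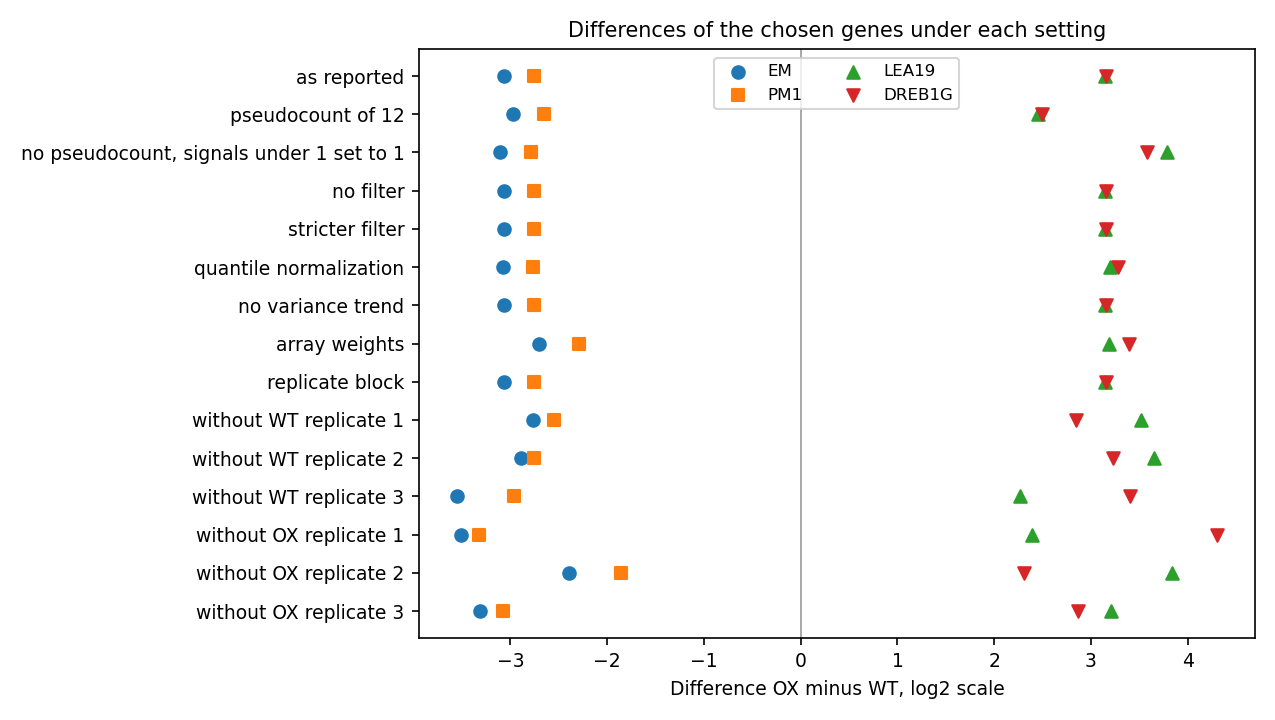
Log2 differences, OX minus WT, of EM, PM1, LEA19 and DREB1G as reported and under each alternative setting. The differences lie between -3.55 and -2.39 for EM, -3.32 and -1.86 for PM1, 2.27 and 3.84 for LEA19 and 2.31 and 4.30 for DREB1G. The genes were chosen by the size of the difference and their groups do not overlap, so leaving out an array could not change the sign.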

How the data were processed

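The authors deposited 1 linear intensity per probe set and array. The submitters' processing notes name MAS5, while its version, scaling target and detection calls are not given in the sources used here. Every array had a 2% trimmed mean of 100.0, so no further scaling was applied. Of 57381 probe sets, 187 controls were left out. Genes were named from the platform annotation and RefSeq (ASM3414082v1, names and gene order only).

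Values were analysed as log2(signal + 3). Probe sets whose mean reached 16.8 (the median over all values without controls) were tested with limma 3.58.1 in R 4.3.3 (genotype alone, variance trend, two-sided, Benjamini-Hochberg over 28456 probe sets). The fit was checked on simulated data. In the lists each gene was represented by its brightest tested probe set. Type 2C phosphatases were limited to group A. The text names all probe sets of the 4 genes, the list members that passed (or the 4 with the smallest p where none or more than 4 did), marker genes, of which those that did not pass were named after their values were seen, the 3 nearest profiles, and exceptions as marked. The 4 genes and the lists were chosen with earlier results of these data known. No sequence or promoter was analysed here. Same-numbered arrays of the genotypes did not deviate together (r of 0.097, -0.013 and -0.056 over tested probe sets), so the numbers were not taken as pairs.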

Additional observations from a re-analysis of the deposited data

How the results depend on the processing

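The log2 differences of EM, PM1, LEA19 and DREB1G varied with the setting in size. These genes were chosen for large differences and their groups do not overlap, so the unchanged sign shows no stability. Without each replicate in turn, the calls over all probe sets ran from 2230 to 5533, against 4578, and array weights gave 7945. In the same order, the calls ran from 0 to 3 in the DREB and CBF list (against 1), from 3 to 8 in the abscisic acid list (against 6), and from 1 to 4 in the cold and drought list (against 3). Array weights gave 2 calls in the DREB and CBF list and 5 in the cold and drought list. The cold and drought list had 1 call with no filter, with no variance trend and with the replicate block. With the replicate block the calls over all probe sets were 3342, and the block moved no other count by over 1.5 times. The late embryogenesis list stayed at 0 calls throughout. Among genes named for passing, DREB1B lost its call in 3 of the 14 and ABA8OX1 in 1. OsSAPK5, OsSAPK3, ABA8OX2 and MYB4 passed in all 14. The cause of these changes was not tested. Without detection calls, low signals such as those of LEA19, DREB1G and ABA8OX1 in WT cannot be told from background.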
